A study of Mus musculus with 9 samples.

Results

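The 10 genes described here encode 6 matrix metalloproteinases (Mmp2, Mmp3, Mmp9, Mmp12, Mmp13 and Mmp14) and the 4 tissue inhibitors of metalloproteinases (Timp1, Timp2, Timp3 and Timp4). They were taken by symbol from a table of 54532 genes, and all 10 were found in it. It holds RNA sequencing values of tissue labelled as vascular, with no vessel named. The mice were C57BL/6 and 24 weeks old, with 9 libraries in 3 groups of 3. All mice carried the ApoE-/- allele pair by their labels, which makes mice prone to atherosclerosis. The SAHH-het+betaine group was SAHH+/- and received betaine, the SAHH-het group was SAHH+/- without it, and the SAHH-WT group carried wild-type SAHH. SAHH, encoded by Ahcy, is the hydrolase of S-adenosylhomocysteine, and betaine is a methyl donor for homocysteine. Not given in the sources used here are the dose and duration of betaine. Nothing in the labels ties the libraries of a group to separate animals, so each p-value measures the spread between these libraries, which may be technical.

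Matrix metalloproteinases are zinc-dependent enzymes that cut the proteins of the extracellular matrix, and most are made as inactive precursors. The TIMP proteins bind their active sites, and TIMP-2 also takes part, with the membrane-bound MMP-14, in turning the MMP-2 precursor into active enzyme. In diseased arteries these enzymes are known for their part in elastin loss, aneurysm and the thinning of the cap of a plaque. Messenger RNA levels do not give enzyme activity, which depends on activation and inhibition of the proteins.

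Values are FPKM, fragments scaled by exon length and by a divisor for each library. Scaling by length allows comparison between genes, while comparison between libraries rests on that divisor. The 9 libraries rest on 15837574 to 17381922 fragments recovered from the FPKM steps, while the divisors that the steps imply ran from 13016483 to 20392461, so the values carry a scaling between libraries beyond their totals. Factors from the median ratio of genes to their mean level were 0.987 to 1.01 for these values. Several measured facts touch every comparison. Ahcy measured 7.66 to 9.70 FPKM where the label was SAHH-het+betaine, 3.48 to 4.75 under SAHH-het, and 7.17 to 11.5 under SAHH-WT, so the libraries labelled SAHH-het+betaine do not show the lower level of those labelled SAHH-het. Apoe measured 5.51 to 8.88, 149 to 225 and 2.91 to 6.11 FPKM in the same order of groups, which goes against the ApoE-/- label in the SAHH-het libraries. Groups are therefore named below as labelled. SAHH-WT 1 stood apart with adrenal cortex genes, which summed to 9625 FPKM there and to 1.44 to 2.73 FPKM in the other 8 libraries. Other tissue markers also varied widely within groups. The 5 skeletal muscle markers summed to 4.67 to 1196 FPKM in SAHH-het+betaine, 3.17 to 8418 in SAHH-het and 6.51 to 2211 in SAHH-WT. The highest of these sums was in SAHH-het 1, and Myh4 was listed at 0 in 4 libraries. The 6 B cell markers summed to 2025 FPKM in SAHH-WT 2 and to 330 FPKM in SAHH-WT 3. The smooth muscle markers Acta2 and Myh11 lay at 37.8 to 163 and 4.76 to 24.2 FPKM, while a further one, Tagln, was at only 0.183 to 1.05 FPKM. The fat marker Adipoq lay at 157 to 697 FPKM. Markers of fat were thus measured beside those of smooth muscle, and in such bulk samples fewer cells of a type and less RNA per cell cannot be told apart.

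Mmp3, Mmp12 and Mmp13 lie close together on chromosome 9, and their start regions are shown because a sequence feature was found in all 3. Any link of this feature to their levels was not tested. RefSeq windows (GRCm38.p6) of 250 bases before the start site were at hand for 8 of the 10 genes, in 9 windows. Mmp2 and Mmp9 had no window and were not searched. The windows were searched on both strands for TGANTCA, the binding motif of AP-1, a dimer of Fos and Jun proteins that relays growth and cytokine signals. Of the 8 genes searched, 3 held a match, Mmp3, Mmp12 and Mmp13, as did 6.75% of the 32851 mouse windows of this length. That share is given for scale without a test, and neighbouring genes may not count as separate matches. It began 46 bases before the start site in Mmp3, 44 before the downstream of 2 start sites in Mmp12 and 35 before that of Mmp13. The stretches of 60 bases read as follows, all on the plus strand, with the match in capitals.
Mmp13, chr9:7272452-7272511: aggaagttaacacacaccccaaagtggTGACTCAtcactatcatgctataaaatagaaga
Mmp12, chr9:7347303-7347362: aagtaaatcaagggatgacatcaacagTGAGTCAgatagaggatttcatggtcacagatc
Mmp3, chr9:7445749-7445808: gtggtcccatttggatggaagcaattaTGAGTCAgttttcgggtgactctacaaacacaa
The letters TATAAA, those of a TATA box, were present in the windows of Mmp3 and Mmp13 and in 12.4% of all windows, with no overlap with the AP-1 letters.

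The window of Timp4, the gene with the largest difference between groups, held no match to the AP-1 motif or to the TATA box letters. It also lacked the GC box, GGGCGG, which 32.7% of all windows hold, and the letters CCAAT, which 33.8% hold. It is printed whole, on the minus strand of chromosome 6, with no capitals because nothing matched.
Timp4, chr6:115252206-115252455: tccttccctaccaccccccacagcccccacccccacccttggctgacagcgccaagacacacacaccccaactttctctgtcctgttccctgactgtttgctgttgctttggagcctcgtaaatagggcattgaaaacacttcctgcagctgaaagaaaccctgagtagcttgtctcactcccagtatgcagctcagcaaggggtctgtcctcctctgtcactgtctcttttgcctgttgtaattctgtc
Such matches, or their lack, describe these letters alone and say nothing of binding in this tissue.

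The inhibitors were the more abundant family in every library. Timp2 led in the SAHH-het+betaine libraries at 45.6 ± 3.01 FPKM (SD, n = 3, as for all means here) and in SAHH-WT at 52.7 ± 6.25 FPKM, clear of Timp3 in range in both groups. In the SAHH-het libraries Timp4 was first in mean at 37.3 ± 9.82 FPKM and Timp2 second at 30.2 ± 4.82 FPKM, with overlapping ranges. Timp3 followed at 17.1 ± 1.96 FPKM in SAHH-het+betaine, 20.2 ± 6.74 in the SAHH-het group and 16.9 ± 3.30 FPKM in SAHH-WT. Of the 6 Mmp genes described here, Mmp2 was the highest in mean in SAHH-het+betaine and SAHH-WT, and Mmp9 in SAHH-het, where its range overlapped that of Mmp2. From Mmp2 down, most neighbours in the order of each group overlapped in range. Mmp13 was last in mean in all 3 groups, with 3 to 48 fragments per library. Its mean over the libraries, 0.383 FPKM, lay below the minimum of 0.5 FPKM set for testing, so 9 of the 10 genes were tested.

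**Figure D1:**
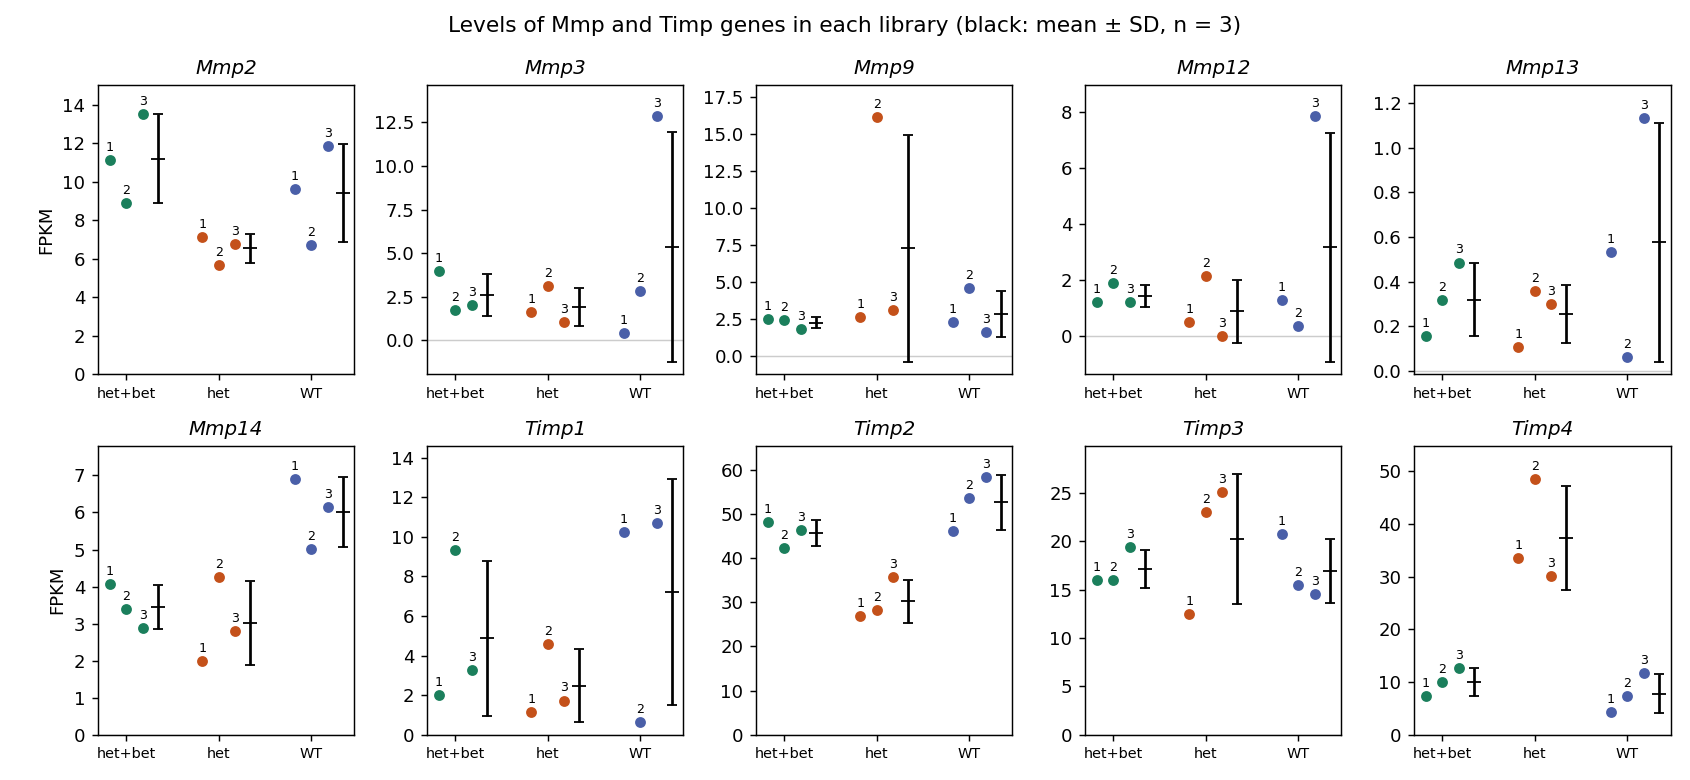
FPKM of the 10 genes in each library, with SAHH-het+betaine (het+bet), SAHH-het (het) and SAHH-WT (WT) from left to right, points numbered by replicate and black bars for mean ± SD (n = 3). The SAHH-het points of Timp4 (30.1 to 48.5 FPKM) stand above all others, those of Timp2 (26.8 to 35.7 FPKM) below all others, and single libraries carry the high values of Mmp3, Mmp9, Mmp12 and Mmp13.

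No tested member of the family passed limma's test at a Benjamini-Hochberg adjusted p under 0.05 in any of the 3 comparisons, nor with voom on recovered fragments. In SAHH-het minus SAHH-WT the count was 0 of 9, against 0.0256% of the 15610 genes tested (4 genes). With the replicate number as a block, 1 gene of the table passed when all 9 libraries were fitted and 0 when only these 2 groups were. At an unadjusted p under 0.05, 3 of 9 were listed (12.5% of all genes), 1 higher in SAHH-het (7.3%) and 2 lower (5.16%). The same 3 genes, Timp4 higher and Timp2 and Mmp14 lower, were those whose groups did not overlap (16.6% of all genes, 8.33% higher and 8.28% lower). The median log2 change of the 9 genes was -0.60, against 0.01 over all genes, and 6 of 9 were negative. All log2 changes were computed from log2(FPKM + 0.5), so those of low genes are understated.

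In SAHH-het+betaine minus SAHH-het, 0 of 9 passed, against 0.0192% of all genes (0.0128% with voom). At an unadjusted p under 0.05 lay 3 of 9 (8.03% of all genes), with Mmp2 and Timp2 higher in the betaine libraries (3.63%) and Timp4 lower (4.4%). Without overlap were 4 of 9 (16.4% of all genes), with Mmp2 and Timp2 higher (8.21%) and Timp4 and Mmp9 lower (8.16%). The median was 0.37, against -0.01 over all genes. This comparison shares the SAHH-het libraries with the first, so opposite signs in the 2 comparisons are not independent. In SAHH-het+betaine minus SAHH-WT, 0 of 9 passed, against 0.0% of all genes by limma and by voom. Mmp14 alone had an unadjusted p under 0.05 (8.01% of all genes, 5.09% higher and 2.93% lower) and groups without overlap (16.9%, 9.29% higher and 7.64% lower). It was lower by both, and the median was -0.19, against -0.02 over all genes.

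**Figure D2:**
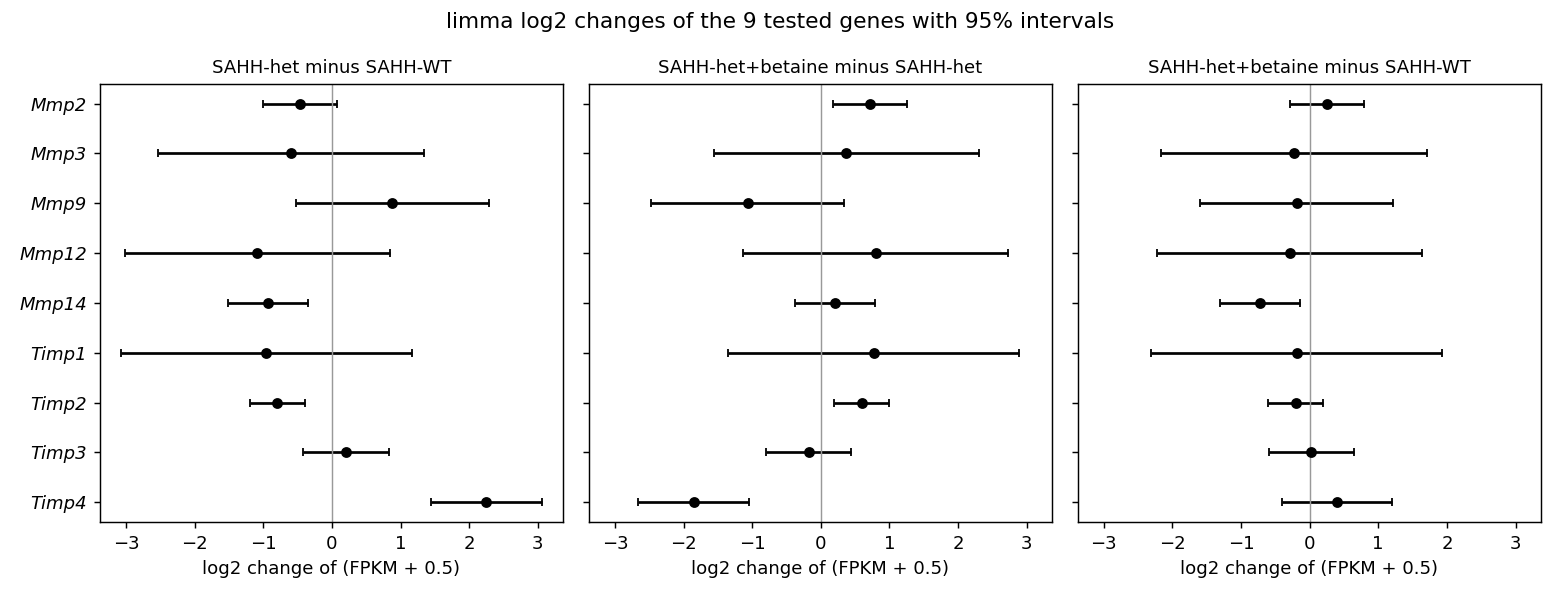
Log2 changes of the 9 tested genes with limma's 95% intervals (bars) in the 3 comparisons, 1 panel each, with the first-named group minus the second. The intervals of Timp4, Timp2 and Mmp14 leave out 0 in SAHH-het minus SAHH-WT, those of Timp4, Timp2 and Mmp2 in SAHH-het+betaine minus SAHH-het, and that of Mmp14 in SAHH-het+betaine minus SAHH-WT.

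Timp4 (ENSMUSG00000030317, protein-coding, chromosome 6, 115241892 to 115252205, GRCm38) encodes the inhibitor with the most restricted tissue range of the family, found mainly in heart and fat. It measured 7.28, 10.1 and 12.6 FPKM in SAHH-het+betaine libraries, 33.5, 48.5 and 30.1 in SAHH-het libraries, and 4.42, 7.40 and 11.6 in SAHH-WT libraries. All 3 SAHH-het libraries were high, the lowest of them 2.38 times the highest of the other 6, while the other 2 groups overlapped. The mean in SAHH-het was 4.78 times that in SAHH-WT, a log2 change of 2.25 (SE 0.35, 95% interval 1.44 to 3.06, limma adjusted p = 0.166). The libraries labelled SAHH-het+betaine minus those labelled SAHH-het gave a log2 change of -1.85 (SE 0.35, 95% interval -2.66 to -1.05, adjusted p = 0.440). Against SAHH-WT the SAHH-het+betaine value was 0.40 (95% interval -0.41 to 1.20, adjusted p = 0.729). Without SAHH-WT 1, the library with adrenal genes, the change in SAHH-het minus SAHH-WT was 1.92. Counting error was small, since 531 to 5108 fragments lay behind each value.

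Fat, the tissue known for Timp4, was measured through its marker genes. The 6 white fat markers, all detected in every library, summed to 2786 to 4049 FPKM in SAHH-het+betaine, 3293 to 3933 in SAHH-het and 705 to 3231 in SAHH-WT. SAHH-het lay above SAHH-WT without overlap and overlapped SAHH-het+betaine. The 6 brown fat markers, in the same order of groups, summed to 4625 to 12379, 5820 to 11722 and 433 to 9847 FPKM, with all groups overlapping. The 7 endothelial markers, detected throughout, summed to 146 to 257, 234 to 545 and 108 to 275 FPKM in that order, also overlapping. The 5 heart muscle markers summed to 2.47 to 708, 3.42 to 13.9 and 3.24 to 560 FPKM, with Nppa listed at 0 in 3 libraries. In SAHH-het minus SAHH-WT all 6 white and all 6 brown fat markers had positive log2 changes, with medians of 0.92 and 1.92. In each list 2 were higher without overlap (8.33% of all genes). Of the 7 endothelial markers 6 were positive (median 0.79), 1 without overlap, and all 5 heart muscle markers were negative. In SAHH-het+betaine minus SAHH-het the medians of white fat, brown fat and endothelium were 0.10, 0.13 and -0.67. The part of these cells in the Timp4 values was not tested.

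Timp4 lies within the synapsin gene Syn2 on the opposite strand, and the sources used here do not say whether counting used strand. The 2 genes share 90 of the 5894 exon bases of Timp4 (1.53%). Syn2 measured 6.21, 1.49 and 6.47 FPKM in SAHH-het+betaine libraries, 15.5, 1.93 and 10.5 in SAHH-het libraries, and 3.69, 1.07 and 4.83 in SAHH-WT libraries. Syn2 was highest in SAHH-het 1 and 3, where Timp4 was also high, and low in SAHH-het 2, where Timp4 was highest. Its part in the Timp4 values was not tested.

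Timp2 (ENSMUSG00000017466, chromosome 11, 118301069 to 118355740), the broadly expressed inhibitor that also helps to activate MMP-2, was low where Timp4 was high. It measured 48.2, 42.3 and 46.4 FPKM in SAHH-het+betaine libraries, 26.8, 28.1 and 35.7 in SAHH-het libraries, and 46.0, 53.5 and 58.4 in SAHH-WT libraries. Every SAHH-het library was below the other 6, and the other 2 groups overlapped. The log2 change was -0.80 in SAHH-het minus SAHH-WT (SE 0.18, adjusted p = 0.282) and 0.60 in SAHH-het+betaine minus SAHH-het (SE 0.18, adjusted p = 0.559), neither past the threshold.

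Timp3 and Timp1 had groups that overlapped in all 3 comparisons. Timp3 (ENSMUSG00000020044, chromosome 10, 86300372 to 86349506), the inhibitor that binds to the matrix, measured 16, 16 and 19.4 FPKM in SAHH-het+betaine libraries, 12.5, 23.1 and 25.1 in SAHH-het libraries, and 20.7, 15.5 and 14.6 in SAHH-WT libraries. Its log2 change in SAHH-het minus SAHH-WT was 0.20 (95% interval -0.42 to 0.83), and -0.10 when libraries were rescaled to a common sum. Timp1 (ENSMUSG00000001131, chromosome X, 20870166 to 20874735), the inhibitor known to be induced by cytokines, measured 2.0, 9.34 and 3.27 FPKM in SAHH-het+betaine libraries, 1.14, 4.6 and 1.74 in SAHH-het libraries, and 10.3, 0.628 and 10.7 in SAHH-WT libraries. It varied over 17.1-fold among the libraries, and SAHH-WT itself held both the highest and the lowest value. Its interval in SAHH-het minus SAHH-WT ran from -3.07 to 1.16, so at this spread even large changes could not be detected. Timp1 and Timp3 lie within the synapsin genes Syn1 and Syn3 on the opposite strand. Syn1 reached 8.75 FPKM but shares no exon base with Timp1, while Syn3 shares 1733 exon bases with Timp3 but did not exceed 0.160 FPKM.

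Mmp2 (ENSMUSG00000031740, chromosome 8, 92827291 to 92853420), the gelatinase of stromal cells, measured 11.1, 8.91 and 13.5 FPKM in SAHH-het+betaine libraries, 7.15, 5.68 and 6.76 in SAHH-het libraries, and 9.63, 6.73 and 11.8 in SAHH-WT libraries. The SAHH-het+betaine libraries lay above all SAHH-het libraries, while SAHH-het and SAHH-WT overlapped through SAHH-WT 2. The log2 change was 0.72 in SAHH-het+betaine minus SAHH-het (95% interval 0.18 to 1.26, adjusted p = 0.559) and -0.47 in SAHH-het minus SAHH-WT (95% interval -1.0 to 0.07, adjusted p = 0.431). Mmp2 was lower in SAHH-het in 3 of 3 same-numbered pairs, and with the block over all 9 libraries limma's adjusted p was 0.386. The labels do not give such pairs.

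Mmp14 (ENSMUSG00000000957, chromosome 14, 54431612 to 54445364), the membrane-bound protease that activates the MMP-2 precursor, had another pattern. It measured 4.07, 3.39 and 2.89 FPKM in SAHH-het+betaine libraries, 2.0, 4.25 and 2.80 in SAHH-het libraries, and 6.89, 5.0 and 6.15 in SAHH-WT libraries. All SAHH-WT libraries were above the other 6, and those labelled SAHH-het+betaine and SAHH-het overlapped. The log2 change was -0.93 in SAHH-het minus SAHH-WT (SE 0.26, adjusted p = 0.329) and -0.72 in SAHH-het+betaine minus SAHH-WT (SE 0.26, adjusted p = 0.618). Between SAHH-het+betaine and SAHH-het it was 0.21 (95% interval -0.38 to 0.79).

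Fibroblast markers, like Timp2 and Mmp2, were lowest in SAHH-het. The sum of 7 such genes (Pdgfra, Lum, Dpt, Dcn, Pi16, Serpinf1 and Col1a1) was 178 to 223 FPKM in SAHH-het+betaine, 77.5 to 104 in the SAHH-het group and 134 to 225 FPKM in SAHH-WT. None was at 0 in any library, and SAHH-het did not overlap either other group. Of the 7, 6 were lower without overlap in SAHH-het than in SAHH-WT (8.28% of all genes), and 7 were higher without overlap in SAHH-het+betaine than in SAHH-het (8.21%). The signs of these changes were not particular to fibroblast markers. All 7 T cell markers had negative log2 changes in SAHH-het minus SAHH-WT, 5 without overlap. All 7 were positive in SAHH-het+betaine minus SAHH-het, 6 without overlap. The 6 B cell markers had the same signs, with 1 and 4 without overlap, against the same shares of all genes. The part of these cells in the values of Timp2, Mmp2 and Mmp14 was not tested.

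Mmp9 (ENSMUSG00000017737, chromosome 2, 164940780 to 164955850), the gelatinase stored in neutrophil granules and made by macrophages, measured 2.44, 2.43 and 1.81 FPKM in SAHH-het+betaine libraries, 2.58, 16.1 and 3.07 in SAHH-het libraries, and 2.27, 4.57 and 1.59 in SAHH-WT libraries. SAHH-het 2 stood alone, with 1019 of that gene's fragments against 84 to 290 elsewhere. The SAHH-het+betaine libraries lay just below all SAHH-het libraries, while SAHH-het and SAHH-WT overlapped. The log2 change was 0.88 in SAHH-het minus SAHH-WT (95% interval -0.53 to 2.28, adjusted p = 0.541) and -1.06 in SAHH-het+betaine minus SAHH-het (95% interval -2.47 to 0.34, adjusted p = 0.686). Without SAHH-het 2 these values were 0.10 and -0.29, so both sizes rest on that library. The labels give no pairs, and the correlations between libraries do not establish any. Set side by side by replicate number, Mmp9 was higher in SAHH-het than in SAHH-WT in 3 of 3. With the replicate number as a block over all 9 libraries, limma's adjusted p was 0.438.

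Neutrophil genes were high in the same library. The 8 neutrophil markers summed to 3.44, 22.9 and 13.7 FPKM in SAHH-het+betaine libraries, 540, 1378 and 154 in SAHH-het libraries, and 337, 233 and 14.7 in SAHH-WT libraries. Ly6g, Mpo and Camp were each at 0 in 2 libraries. Mmp8, the collagenase of neutrophils, measured 0.146, 0.444 and 0.157 FPKM in SAHH-het+betaine libraries, 3.37, 17.7 and 1.49 in SAHH-het libraries, and 2.47, 1.75 and 0.364 in SAHH-WT libraries. Both peaked in SAHH-het 2, like Mmp9, and their part in the Mmp9 values was not tested.

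Mmp3, Mmp12 and Mmp13 were all highest in SAHH-WT 3. Mmp3 (ENSMUSG00000043613, 7445822 to 7455975), stromelysin 1, which can activate other MMP precursors, measured 3.97, 1.75 and 2.03 FPKM in SAHH-het+betaine libraries, 1.61, 3.11 and 1.04 in SAHH-het libraries, and 0.408, 2.85 and 12.9 in SAHH-WT libraries. Mmp12 (ENSMUSG00000049723, 7344381 to 7369499), the elastase of macrophages, measured 1.20, 1.89 and 1.23 FPKM in SAHH-het+betaine, 0.520 and 2.13 FPKM in SAHH-het 1 and 2, and 1.3, 0.354 and 7.85 FPKM in SAHH-WT. In SAHH-het 3 Mmp12 had no fragment, which allows up to 3 fragments, or 0.0278 FPKM, by counting error alone.

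Mmp13 (ENSMUSG00000050578, 7272514 to 7283331), the collagenase of cartilage and bone that is also made in plaques, measured 0.155, 0.316 and 0.485 FPKM in SAHH-het+betaine libraries, 0.108, 0.356 and 0.301 in SAHH-het libraries, and 0.532, 0.0626 and 1.13 in SAHH-WT libraries. The cartilage markers gave little signal, with sums of 0.388 to 3.45 FPKM over all libraries. SAHH-WT held both the highest and the lowest value of Mmp3 and of Mmp13, and all groups overlapped for the 3 genes. The log2 change in SAHH-het minus SAHH-WT was -0.60 for Mmp3 (95% interval -2.53 to 1.34) and -1.09 for Mmp12 (95% interval -3.02 to 0.84). With voom on recovered fragments Mmp12 had -2.98, and with a pseudocount of 0.1 it had -1.73. Without SAHH-WT 3 the limma values were 0.38 for Mmp3 and -0.17 for Mmp12, so both rest on that library. The SAHH-het+betaine minus SAHH-het value of Mmp12 was 0.80 with limma, 2.91 with voom and 1.55 with a pseudocount of 0.1. Without SAHH-het 3, the library with no Mmp12 fragment, the limma value was 0.23, so its size rests on that library. The SAHH-het+betaine minus SAHH-WT values were -0.22 for Mmp3 and -0.29 for Mmp12, and without SAHH-WT 3 they had 0.76 and 0.63. The 8 macrophage markers, all detected in every library, summed to 316 to 753 FPKM in SAHH-het+betaine, 376 to 739 in the SAHH-het group and 229 to 931 FPKM in SAHH-WT, where SAHH-WT 3 had the highest sum. Their part in these values was not tested.

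The makeup of the inhibitor pool differed between SAHH-het and the other groups without overlap, while its size overlapped. The 4 Timp genes summed to 73.4 to 81.7 FPKM in SAHH-het+betaine, 73.9 to 104 in the SAHH-het group and 77.1 to 95.4 FPKM in SAHH-WT, with all groups overlapping. Timp4 made up 12.8 ± 2.78% of that sum in SAHH-het+betaine, 41.4 ± 7.78% in SAHH-het and 9.08 ± 3.42% in SAHH-WT. Timp2 made up 59 ± 5.89%, 34 ± 6.15% and 62.4 ± 6.54% in the same order. The 6 Mmp genes summed to 18.7 to 23.0 FPKM in SAHH-het+betaine, 14 to 31.6 in the SAHH-het group and 19.6 to 41.4 FPKM in SAHH-WT. Mmp9 made up 50.9% of it in SAHH-het 2, and Mmp3 and Mmp12 31.0% and 19.0% in SAHH-WT 3. The ratio of the Mmp to the Timp sum was 0.274 ± 0.0366 in SAHH-het+betaine, 0.214 ± 0.0794 in SAHH-het and 0.315 ± 0.103 in SAHH-WT, a description of these 10 genes with overlapping groups and no test. With Timp4 left out of the sum, the ratios were 0.314 ± 0.0359, 0.378 ± 0.174 and 0.349 ± 0.125.

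**Figure D3:**
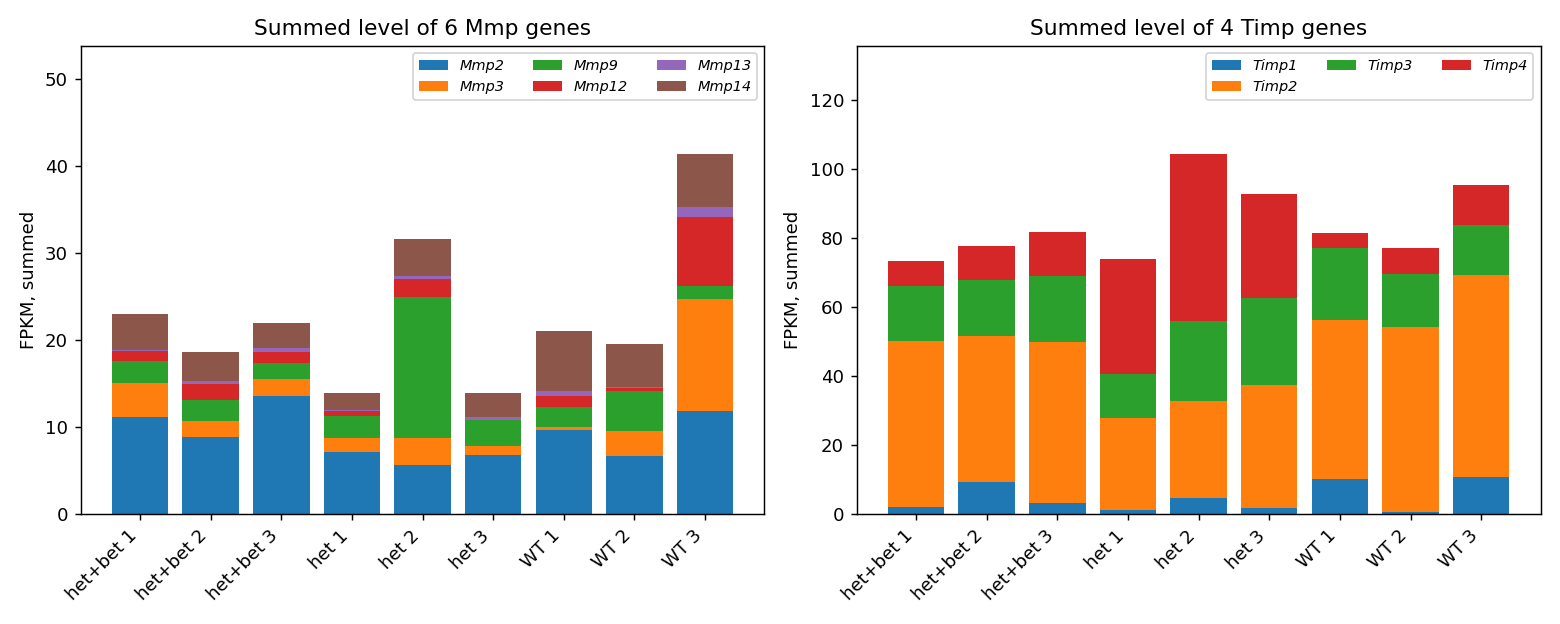
Summed FPKM of the 6 Mmp genes (left) and the 4 Timp genes (right) in each library, SAHH-het+betaine, SAHH-het and SAHH-WT from left to right, with bars split by gene. The Timp4 share is 32.5 to 46.5% in the SAHH-het libraries and 5.42 to 15.5% in the other 6, while the summed Timp level overlaps between groups.

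Other genes of this protease system also gave 0 calls in all 3 comparisons, against 0.0256%, 0.0192% and 0.0% of all genes in the order above. Of 17 further matrix metalloproteinase genes 7 reached the level for testing. Mmp15, a membrane-bound enzyme, and Mmp19 had the highest means of these. Mmp19 measured 11.6, 10.9 and 10.9 FPKM in SAHH-het+betaine libraries, 2.27, 4.44 and 6.69 in SAHH-het libraries, and 6.97, 5.33 and 8.25 in SAHH-WT libraries, so the betaine libraries were above all others. Its log2 change was 1.33 in SAHH-het+betaine minus SAHH-het (95% interval 0.59 to 2.07, adjusted p = 0.505) and 0.68 in SAHH-het+betaine minus SAHH-WT (adjusted p = 0.618). Mmp8, with levels given above, had -2.82 in SAHH-het+betaine minus SAHH-het (limma adjusted p = 0.552), lower without overlap (8.16% of all genes). Mmp1a, Mmp1b, Mmp7 and Mmp20 were listed at 0 in every library.

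Among 9 genes of plasminogen activation, a route by which MMP precursors are activated, 7 were tested, with a median log2 change of 0.08 in SAHH-het minus SAHH-WT. Serpinb2, an inhibitor of plasminogen activators, had the smallest p, with means of 1.93 FPKM in SAHH-het+betaine, 2.78 in SAHH-het and 0.496 in SAHH-WT (log2 change in SAHH-het minus SAHH-WT 1.77, adjusted p = 0.304). The receptor gene Plgrkt had a log2 change of 0.28 and the activator genes Plat and Plau -0.48 and -0.57.

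Of 15 genes for activation, binding and clearance of MMPs, 14 were tested, with a median of -0.30, and 3 were lower in SAHH-het without overlap (8.28% of all genes). These were Thbs2, whose product thrombospondin 2 helps clear MMP-2 (log2 change -1.10, adjusted p = 0.282), the integrin gene Itgav (-0.70) and Reck, a membrane-anchored MMP inhibitor (-0.75). Thbs2 had 1.14 in SAHH-het+betaine minus SAHH-het. The abundant Bsg, known as an inducer of MMPs, had 0.55, and Sparc, a matrix-binding protein gene, -0.40 in SAHH-het minus SAHH-WT.

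The 11 matrix substrates had 10 tested genes and a median of -0.56 in SAHH-het minus SAHH-WT, where 3 were lower without overlap (8.28% of all genes). Bgn, a small proteoglycan, measured 15.4 FPKM in the SAHH-het group and 39.0 FPKM in SAHH-WT (log2 change -1.30, adjusted p = 0.245). Col1a2 and Col1a1, the chains of collagen I, had -1.66 and -1.72. Between SAHH-het+betaine and SAHH-het the median was 0.65, and 6 were higher without overlap (8.21% of all genes). Dcn, another small proteoglycan, had -0.72 and Col4a1, a basement membrane collagen, 0.06 in SAHH-het minus SAHH-WT, with overlapping groups. Col1a1 and Dcn were also counted among the fibroblast markers above. Of 17 ADAM and ADAMTS protease genes 15 were tested, with a median of -0.17 in SAHH-het minus SAHH-WT. Adam15 had 0.81, Adam12 1.06, Adamts9 0.70 and Adam9 -0.32. The 12 tested of 14 inducer genes had a median of -0.17, with Fosl1 at 0.65, Fosb at -1.03, Tnf at -0.94, Rela at -0.02 and Jund at -0.27. Fosl1 and Fosb, both subunits of AP-1, thus had log2 changes of opposite sign. Rescaling to a common sum shifts the median of all genes by -0.30 in this comparison, as much as or more than several of these medians.

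The genes most like each member were found by the root-mean-square difference of centred log2 profiles over the 9 libraries, a description in which all profiles share libraries and tissue content. Timp4, which varied by 1.06 about its own mean, was nearest to Gpihbp1 (difference 0.23), the protein that holds lipoprotein lipase on capillary endothelium, then to Gpr160 (0.30) and Lgals4 (0.33). Gpihbp1 measured 27.7, 30.8 and 46.2 FPKM in SAHH-het+betaine libraries, 101, 193 and 71 in SAHH-het libraries, and 16.8, 30.9 and 44.5 in SAHH-WT libraries, with SAHH-het above the other 6. It was picked for its likeness to Timp4 in these libraries, so this order is not a separate observation. Timp2 was nearest to Ddr2, a collagen receptor of mesenchymal cells (0.11), and Mmp14 to Bace2 (0.16) and Myof (0.17).

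Mmp9 was near Gm15931 (0.29) and Nfe2, a transcription factor of blood cells (0.30), both high in SAHH-het 2. Mmp3 was nearest to the cholesterol exporter gene Abcg1 (0.45) and to the chemokine genes Ccl22 and Ccl7 (0.51 and 0.52). Mmp12 was nearest to Atp6v0d2 (0.57), a proton pump subunit of osteoclasts and macrophages, and Mmp2 to Gm13803 (0.17). Timp3 was nearest to Gm12183 (0.10), and Timp1 to n-R5s73 (0.47), a ribosomal RNA gene listed at 0 in 5 libraries. Among the members, Mmp2 and Timp2 were the nearest pair (0.31), where Timp2 ranked 283 among all genes by distance from Mmp2, while Mmp12 and Timp1 (0.78) ranked 31 among all genes by distance from Mmp12.

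**Figure D4:**
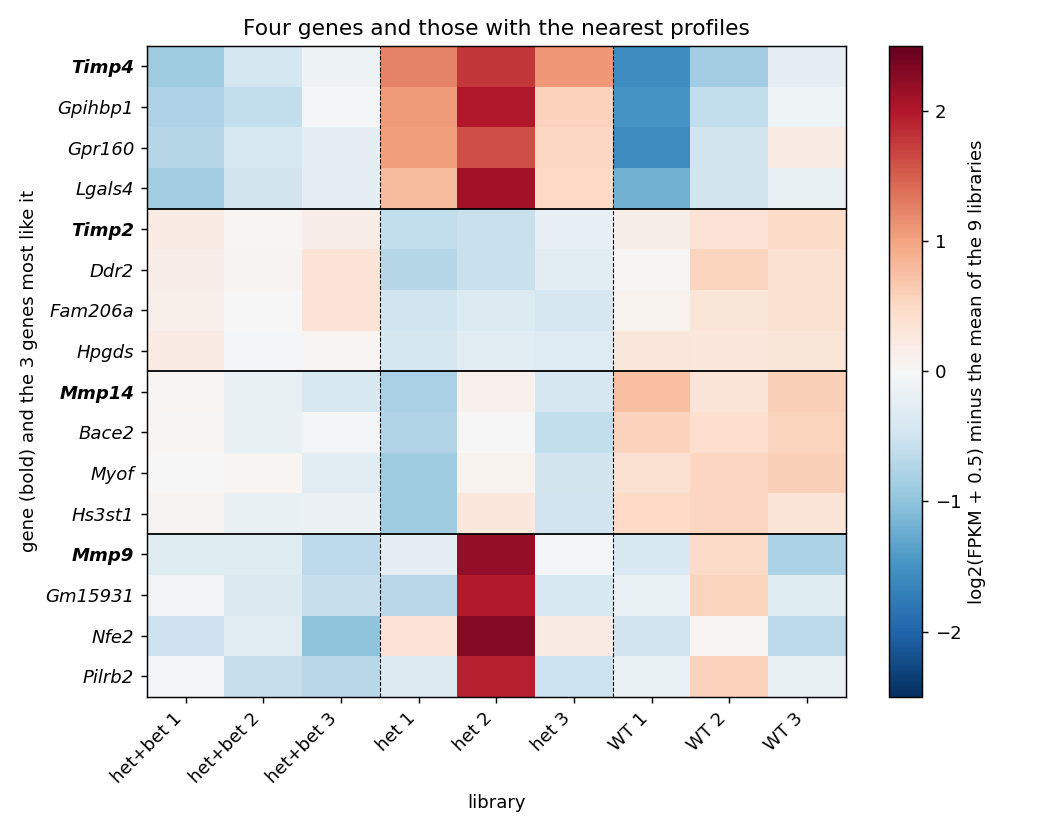
Log2(FPKM + 0.5) of Timp4, Timp2, Mmp14 and Mmp9 (bold) and the 3 genes most like each, minus the mean of the 9 libraries, shown by colour for each library, SAHH-het+betaine, SAHH-het and SAHH-WT from left to right. Timp4 and its neighbours are high in the 3 SAHH-het libraries, Timp2 and its neighbours low there, Mmp14 and its neighbours high in SAHH-WT, and Mmp9 and its neighbours high in SAHH-het 2.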

How the data were processed

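Reads came from total RNA of 9 mouse libraries. The authors deposited FPKM, 1 column per library. HISAT2 2.0.5 aligned them to mm10, per the submitters' processing notes. The authors' own tests used DESeq2, per the series design text. Not given in the sources used here are the counter, its strand setting and the annotation. Symbols matched 54409 of 54532 genes, and GENCODE M21 (GRCm38) gave positions and exon lengths. With these, 96.9 to 97.3% of values above 0 were whole fragments within 0.1. Implied divisors differed from the recovered totals, and the formula behind the deposited FPKM is unstated. FPKM are not counts, so the main test was limma 3.58.1 (trend, two-sided) in R 4.3.3 on log2(FPKM + 0.5), with 3 group means of all 9 libraries restricted to 15610 genes averaging 0.5 FPKM or more, Benjamini-Hochberg adjusted over all of them. The script was tested on simulated data. The members, lists and rules were chosen with earlier results of these data known. Named from each pathway list were the 3 genes with the smallest p in SAHH-het minus SAHH-WT and the 2 with the highest mean, and for each member the 3 nearest profiles; further genes were named after their values were seen. Deviations from group means correlated at 0.29, 0.23 and 0.18 in the same-numbered SAHH-het and SAHH-WT pairs. The numbers were therefore tried as a block, from the data alone. Other pairs of same-numbered libraries lay at -0.35 to 0.08. Differently numbered SAHH-het and SAHH-WT pairs lay at -0.33 to 0.099. Some differently numbered pairs with SAHH-het+betaine libraries were higher, with SAHH-het 1 and SAHH-het+betaine 3 at 0.39. SAHH-WT 2 and SAHH-het+betaine 1 reached 0.31, so such values do not establish a pairing, and the labels give none. Alternatives were another pseudocount or filter, TPM and median ratio scaling, voom on recovered fragments, only the 2 groups compared, replicate blocks and leaving out each library.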

Additional observations from a re-analysis of the deposited data

How the results depend on the processing

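None of the 9 tested genes passed under any of 20 alternatives, where the lowest adjusted p was 0.140 (Timp4). Of 522 values, 506 kept their direction. Rescaling to a common sum (TPM) shifted the median of all genes by -0.30, -0.08 and -0.39 in the 3 comparisons and gave Timp3 -0.10 in SAHH-het minus SAHH-WT, and Timp3 -0.37 and Mmp2 -0.13 in SAHH-het+betaine minus SAHH-WT, where voom gave Mmp3 0.13. Mmp12 with voom had -2.98 in SAHH-het minus SAHH-WT and 2.91 in SAHH-het+betaine minus SAHH-het. The causes were not tested.

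Leaving out single libraries, the log2 change ran from -1.56 to 0.38 for Mmp3 in SAHH-het minus SAHH-WT. In SAHH-het+betaine minus SAHH-het it ran from -0.014 to 0.45 for Mmp14 and from -0.48 to 0.0031 for Timp3. In SAHH-het+betaine minus SAHH-WT it ran from -1.18 to 0.76 for Mmp3, -0.47 to 0.17 for Mmp9, -1.02 to 0.63 for Mmp12, -1.28 to 0.38 for Timp1 and -0.070 to 0.175 for Timp3.

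Over all genes, calls in SAHH-het minus SAHH-WT numbered 4, 2 with TPM, 7 with no filter, 1 with only the 2 groups, and 1 to 5 without single libraries (1 without SAHH-het 3 or SAHH-WT 2, and 2 without SAHH-het 1, SAHH-WT 3 or any SAHH-het+betaine library). With the replicate block they numbered 1 (all 9 libraries), 0 (only the 2 groups) and 5 (SAHH-het and SAHH-WT within all 9, added after seeing the data). In SAHH-het+betaine minus SAHH-het they numbered 3, then 1 and 0 with those first 2 replicate blocks, and 1 to 4 without single libraries (1 without any of the SAHH-het+betaine libraries, SAHH-het 1 or 3, or SAHH-WT 3). In SAHH-het+betaine minus SAHH-WT they numbered 0, 3 with no filter and 0 to 2 without single libraries (2 without SAHH-WT 1, 1 without SAHH-het 2). The block changed no call of the 9 genes.

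Without single libraries, when fewer were left to overlap, members without overlap numbered 3 to 7 of 10 in SAHH-het minus SAHH-WT (7 without SAHH-WT 2, against 21.0% of all genes then). They numbered 4 to 8 in SAHH-het+betaine minus SAHH-het (8 without SAHH-het 2, 31.2% of all genes) and 1 to 3 in SAHH-het+betaine minus SAHH-WT (3 without SAHH-WT 1 or 2, 28.3% and 23.4% of all genes). With TPM they numbered 4 (13.5% of all genes), 3 (12.8%) and 2 (14.5%) in the 3 comparisons. Depth limits Mmp12, Mmp13, Timp1 and Mmp3, with as few as 0, 3, 10 and 15 fragments in a library.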
